A study of Mus musculus with 9 samples.

Results

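The cytosolic ribosomal protein genes were examined as 1 group across leukemia cells of 3 kinds. The 76 members were the rows of the deposited expression table whose symbol is that of a cytosolic ribosomal protein (Rpl or Rps followed by a number, by a number with an a or x, or by the P stalk names and Rpsa), out of 55536 rows. The naming rule uses no measured value, but the set was chosen with earlier results of these data known. The large (60S) subunit accounted for 46 members and the small (40S) subunit for 30. This naming leaves out genes of cytosolic ribosomal proteins with other names, such as Fau, Rps3a1 and Rack1, as well as pseudogenes and paralogs, which are described apart.

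The study compared 3 populations of MLL-AF9-driven acute myeloid leukemia (AML) cells of the C57BL/6J strain, each with 3 libraries. AML-WT-c-kit- (WT c-kit- for short) and its counterpart AML-WT-c-kit+ (WT c-kit+) were sorted from bone marrow by absence or presence of the c-kit receptor and carry the genotype label control-GFP overexpression. AML-IRF7-/--c-kit+, IRF7-/- c-kit+ for short, carries the label IRF7-/--GFP overexpression and came from donor cells in which a PGK-beta-geo cassette stands in place of exons 2 and 3 of Irf7. All groups descend from c-kit+ donor cells infected with a retrovirus carrying the fusion oncogene MLL-AF9 and GFP, and they were harvested on day 18 from recipients transplanted at 6 to 8 weeks of age without irradiation. No treatment other than the transplant is given for any group. The labels do not say whether the 3 libraries of a group came from separate mice, so the p-values below measure the spread between these libraries, which may be technical. Values are TPM, transcript counts scaled to gene length and to the library total, and the depth behind them is unknown.

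Irf7 was listed at 23.5, 22.3 and 32.3 TPM in WT c-kit-, at 5.31, 3.91 and 3.36 TPM in WT c-kit+ and, under the IRF7-/- c-kit+ label, at 12.8, 5.97 and 7.95 TPM. The targeted gene was therefore higher under the knockout label than in WT c-kit+, with a log2 difference of 0.89 (SE 0.27, adjusted p = 0.0321), or 0.78 (adjusted p = 0.0564) after median-of-ratios scaling, which misses the threshold, and a value for the whole gene does not show which exons were read. For this reason they are called the libraries labelled IRF7-/- c-kit+, or the labelled knockout, and every direction drawn from them below rests on that label. Kit, the sorted receptor, followed its labels: 0.52 to 3.03 TPM in WT c-kit-, 50.7 to 58.5 TPM in WT c-kit+ and 70.3 to 85.7 TPM in the labelled knockout. The 19 mature myeloid markers, of which S100a9, S100a8 and Ngp had the highest means in WT c-kit+, summed to 25587 to 52220.2, 87115 to 139754 and 23876 to 28620.2 TPM in the same order, and none was at 0 in any library. Of them 13 were lower and 2 (Ctsg and Prtn3) higher in the labelled knockout than in WT c-kit+, and 9 were higher and 4 lower in WT c-kit+ than in WT c-kit-. The call of Prtn3 was lost after median-of-ratios scaling. In the labelled knockout the highest means of the list were those of Elane, Prtn3 and Ctsg. The markers thus did not move as 1 set, and their sum does not measure maturity alone. Summed markers of T cells (at most 1.96 TPM), erythroid cells (at most 18.1), megakaryocytes (at most 13.01) and B cells (at most 38.1, nearly all of it Cd79b) were low in all 9 libraries. The 7 endothelial and stromal markers summed to 128 to 159, 59.8 to 70.4 and 124 to 157 TPM, lowest in WT c-kit+. Nearly all of that sum was Pecam1 (37.9 to 106 TPM over all libraries) and Lepr (15.9 to 58.4). The other markers of this list were at 1.6 TPM or less in every library. The part of this sum in the results was not tested.

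Each ribosome holds 1 copy of nearly every ribosomal protein on a scaffold of ribosomal RNA, and the acidic proteins of the P stalk are the exception, present in more than 1 copy. The small subunit decodes the mRNA and the large subunit joins the amino acids. Most mRNAs of these proteins begin with a tract of pyrimidines at their cap, called the TOP motif, through which mTORC1 and Larp1 control their translation. Growing and immature blood cells are rich in these mRNAs, and losing 1 copy of several of the genes causes Diamond-Blackfan anemia, a failure of red cell production.

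Promoter sequences are shown first because a pyrimidine tract is common at the starts of these genes. The windows printed below hold one both in members that rose and in members that did not pass the test. How common it is in each of these 2 kinds was not compared. RefSeq start sites on GRCm38.p6 were found for 56 members. The members with no entry include Rpl17, Rpl21, Rpl23a, Rpl29, Rpl3, Rpl30, Rpl32, Rpl36, Rpl7, Rpl8, Rplp1, Rps14, Rps20, Rps27a and Rps29. From 50 bases before to 50 bases after the annotated start, the longest unbroken run of C and T on the transcribed strand had a median of 11 bases in the members and 7 bases in all genes with an entry. A run of at least 8 bases was present in 85.7% of these members (48 of 56) and in 39.3% of all genes. The letters CTTTC stood in this window in 55.4% of the members (31) and 14.6% of all genes, while on the other strand (GAAAG in the printed direction) they stood in 8.93% of the members (5) and 13.8% of all genes. CTTTC can lie within the longest run, so these 2 counts overlap. A match describes letters near an annotated start and is not a measured transcript end. Windows of 30 bases with the run in capitals follow for 5 members that are higher in the libraries labelled IRF7-/- c-kit+ (Rpl5, Rpl36a, Rpl10a, Rpl11 and Rpl13a) and for 3 that did not pass the test (Rplp2, Rps27 and Rps9), each in the direction of transcription.
Rpl5: gcctacagccaCTCTTTCTCacgtcgcttg
Rpl36a: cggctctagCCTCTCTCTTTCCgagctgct
Rpl10a: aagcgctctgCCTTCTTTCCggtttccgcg
Rpl11: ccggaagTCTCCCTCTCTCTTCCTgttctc
Rpl13a: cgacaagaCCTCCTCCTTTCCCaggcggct
Rplp2: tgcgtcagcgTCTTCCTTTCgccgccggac
Rps27: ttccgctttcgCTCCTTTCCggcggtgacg
Rps9: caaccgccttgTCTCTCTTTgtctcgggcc
In order, these windows lie at chr5:107900497-107900526 (plus strand), chrX:134585672-134585701 (plus), chr17:28328572-28328601 (plus), chr4:136053358-136053387 (minus), chr7:45128722-45128751 (minus), chr7:141447636-141447665 (plus), chr3:90213632-90213661 (minus) and chr7:3704024-3704053 (plus). The longest run among them was 17 bases in Rpl11 and the shortest 9 bases in Rpl5, Rps27 and Rps9. Another annotated start of Rpl10a, not printed, had a run of 7 bases. Runs of 9 bases thus stood both in Rpl5, among the largest rises, and in Rps27 and Rps9, which did not pass the test.

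How much of a ribosomal protein's RNA is listed under its own name depended on near-identical copies elsewhere in the genome, most of them processed pseudogenes. A row was counted as a copy where at least 50% of the 31-base words of a transcript also stood in a transcript of a member. By this measure 306 rows copied 69 of the 76 members, and 72 of these rows had a mean of at least 1 TPM. All 30 bases from the first ATG of the longest shared stretch were the same in the following pairs of gene and copy, with the ATG in capitals, so that a read within them has the same sequence in both rows.
Rps12 and Rps12-ps3: ATGgccgaggaaggcatagctgctggaggt
Rpl12 and Gm10275: ATGccgcccaagttcgaccccaacgaggtc
Rps23 and Rps23-ps1: ATGggcaagtgtcgtggtctccgaactgcc
The copies lie on GRCm38 at chr19:59322290-59322783, chr10:29698746-29699380 and chr3:37714740-37715164 (GENCODE M21). The shared stretch without a difference was 494 bases in Rps12, 634 bases in Rpl12 and 425 bases in Rps23, against transcripts of 494, 635 and 425 bases in the copies. Rps12, a protein of the small subunit head, had a mean level of 85.97 TPM over the 9 libraries while its copies had 5303 TPM, or 98.4% of the sum. For Rpl12, which sits at the base of the P stalk, the copies held 97.5% (2763 against 70.7 TPM). Copies held over 50% of the sum in 13 members, among them Rpl27a, Rpl5, Rps23, Rpl31, Rpl36a, Rps28, Rps20 and Rpl10, and under 10% in 56 members.

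**Figure D1:**
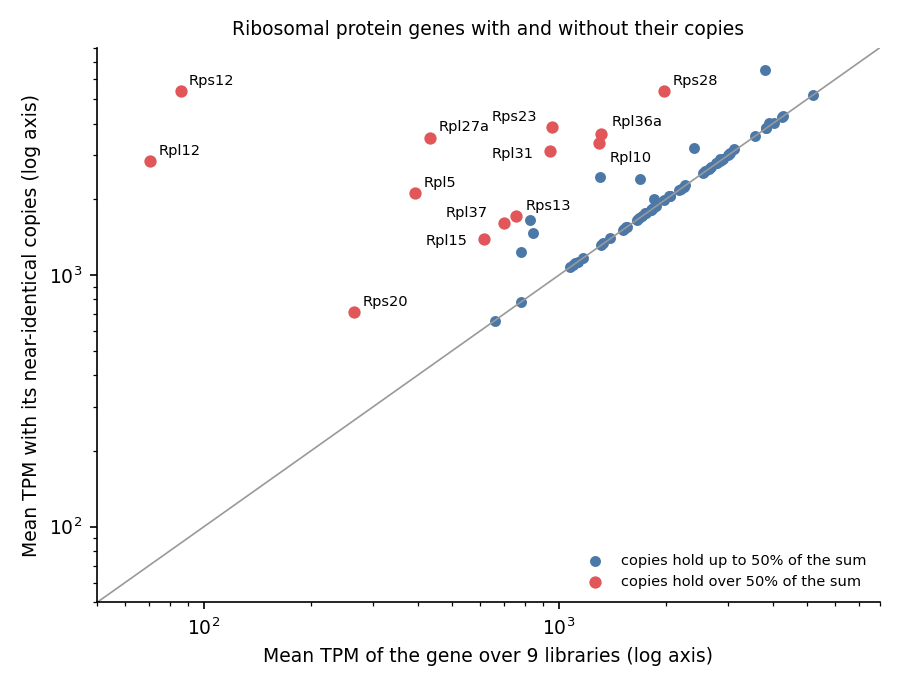
Mean TPM of each of the 76 ribosomal protein genes over the 9 libraries (horizontal, log axis) against the mean with the TPM of its near-identical copies added (vertical, log axis), with the line of equal values. Most genes sit on the line, and the 13 named genes lie above it, with Rps12 and Rpl12 farthest from it.

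Levels of the members therefore spread widely by name and less so by family. On the TPM scale, which allows levels of different genes to be compared, the means over the 9 libraries ran from 70.7 TPM (Rpl12) to 5198 TPM (Rpl13a), a 73.6-fold range, with a median of 1822 TPM. With copies added, the range was 9.91-fold, from 659 TPM in Rps7 to 6525 TPM in Rps29. Among the highest members by name were Rpl13a (5198 TPM), Rps24 (4273) and Rpl23a (4258), and the lowest were Rpl12, Rps12, Rps20 (265) and Rpl5 (393). All 76 members had at least 1 TPM in all 9 libraries, and between 43 and 51 of them were among the 100 most abundant rows of a library. Members lie on 19 chromosomes, 14 of them on chromosome 7, 31 hold a small RNA gene within their bounds, many of them snoRNA genes, and 25 are overlapped by another gene, such as Rpl12 by Lrsam1, Rpl23a by Tlcd1, Rpl5 by Fam69a and Rps2 by Snhg9, all on the other strand. The kit does not mark strand, so reads from such overlaps cannot be told apart.

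Summed over the members, the ribosomal protein TPM was highest in the libraries labelled IRF7-/- c-kit+. WT c-kit- had sums of 138056, 145725 and 133357 TPM, WT c-kit+ had 130818, 156634 and 137261 TPM, and the labelled knockout had 167666, 174974 and 170540.0 TPM. The last 3 lay above all 6 others, while the 2 WT groups overlapped, and WT c-kit+ replicate 2 was the highest of the WT libraries. Group means were 139046 ± 6243, 141571 ± 13437 and 171060.0 ± 3682 TPM (SD, n = 3), which is 14.1%, 14.3% and 17.2% of the library total. The labelled knockout mean was thus 1.21 times that of WT c-kit+ and 1.23 times that of WT c-kit-. No test was made on this sum.

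Since TPM add up to a fixed total, genes of other kinds move this sum. In WT c-kit+ the 10 most abundant rows held 13.1 to 17.3% of the total, against 9.88 to 10.3% in WT c-kit- and 9.39 to 9.57% in the labelled knockout. Within WT c-kit+, replicate 2 had the lowest mature myeloid sum (87115 TPM) and the highest ribosomal protein sum, and 75 of the 76 members had their highest level of that group there. Replicate 2 also had the highest ribosomal protein sum and the lowest mature myeloid sum in the 2 other groups, and was the highest library of its group in 69 members in WT c-kit- and in 49 in the labelled knockout. The median coefficient of variation of the members was 9.55% in WT c-kit+, 4.76% in WT c-kit- and 3.34% in the labelled knockout, where genes at least as abundant as the lowest member had 6.99%, 6.65% and 5.18%. After scaling by median of ratios, which sets the typical gene rather than the total equal between libraries, the sums were 134767, 142148 and 134392 in WT c-kit-, 140559, 162853 and 145656 in WT c-kit+ and 162480.0, 167901 and 164792 in the labelled knockout. On that scale WT c-kit+ replicate 2 reached the labelled knockout libraries, and the ratio of means fell to 1.10 against WT c-kit+ and to 1.20 against WT c-kit-. In bulk RNA a smaller share of cells of a kind and less of its RNA in each cell cannot be told apart, and the part of the mature myeloid genes in the ribosomal protein levels was tested only by leaving their list out (below).

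**Figure D2:**
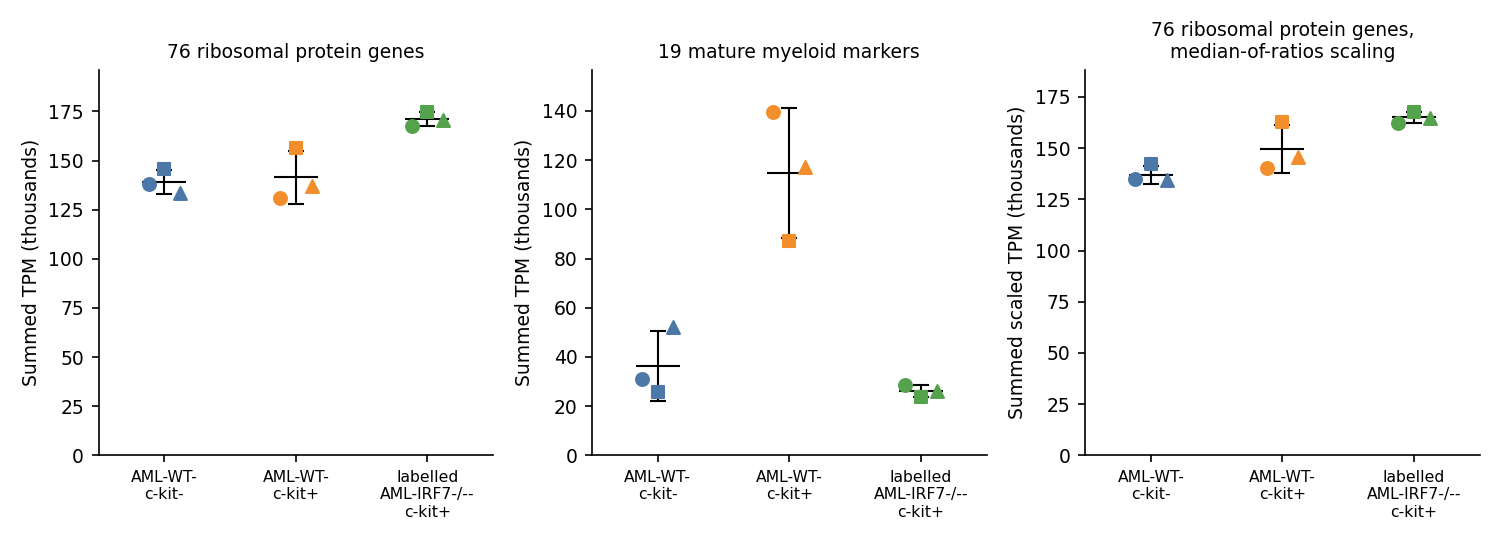
Summed TPM by library, in units of 1000 TPM, for the 76 ribosomal protein genes (left), the 19 mature myeloid markers (middle) and the ribosomal protein genes after median-of-ratios scaling (right), with replicates 1, 2 and 3 as circle, square and triangle and the mean and SD in black. The libraries labelled IRF7-/- c-kit+ lie between 167666 and 174974 TPM on the left, above all others, and on the right WT c-kit+ replicate 2 lies among them.

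The comparison of the labelled IRF7-/- c-kit+ libraries with WT c-kit+ asks how c-kit+ leukemia cells of the 2 genotypes differ. Ribosomal protein genes were higher in the labelled knockout by a small amount, 0.21 to 0.36 on the log2 scale for the middle of the members. With limma on log2(TPM + 1), 46 of the 76 members passed an adjusted p under 0.05 as higher and 0 as lower (57 and 0 at an unadjusted p under 0.05), where 31.9% of all 13238 genes tested were called higher and 16.1% lower. No member reached a log2 difference of 1 in size, a threshold that 11.7% of all genes passed together with the p threshold. The median log2 difference of the members was 0.29 (1.22-fold), with 75 of 76 above 0 and quartiles of 0.21 and 0.36, whereas all genes tested had a median of 0.12 and quartiles of −0.19 and 0.40. Abundant genes as a whole were nearer to the members. The 2057 genes tested at or above the lowest member mean, members among them, had a median of 0.18 and quartiles of −0.074 and 0.37. The distance of the members from the median of all genes, 0.17, was 0.16 after median-of-ratios scaling, 0.16 with the mature myeloid list left out and 0.11 after quantile normalization. It was also 0.11 without WT c-kit+ replicate 1 and 0.21 without its replicate 2. Calls depended on the scaling too: median-of-ratios scaling moved the median of all genes from 0.12 to −0.0018, and the members called higher fell to 10 (22.0% of all genes higher and 22.1% lower), to 17 with the mature myeloid list left out (21.5% and 21.8%) and to 23 after quantile normalization (24.8% and 20.0%). With near-identical copies added to their members 48 were called higher (32.0% and 16.3% of all genes). Libraries of the labelled knockout lay above all 3 of WT c-kit+ in 59 members and below in 0, against 39.0% and 20.1% of all genes. The number called also hung on single libraries, being 66 without WT c-kit+ replicate 2, 19 without its replicate 1, 12 without its replicate 3, and 15, 20 and 14 without replicates 1, 2 and 3 of the labelled knockout.

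The called members with the largest rises in this comparison were Rpl41, Rpl5, Rps23 and Rpl10a. Rpl41, the smallest protein of the large subunit, was listed at 2000.1, 2452 and 2211 TPM in WT c-kit+ and at 3539.8, 3421 and 3486 TPM in the labelled knockout (chr10:128548114-128549305, ENSMUSG00000093674). Its log2 difference was 0.65 (SE 0.092, adjusted p = 0.00183) and 0.52 (adjusted p = 0.0037) after median-of-ratios scaling. All 3 labelled knockout libraries were above the WT libraries of both kinds, which ran from 2000.1 to 2495 TPM. Rps23, a protein of the decoding center, stood at 766, 994 and 853 TPM in WT c-kit+, against 1204, 1222 and 1292 TPM in the labelled knockout, a log2 difference of 0.52 (SE 0.10, adjusted p = 0.00637). The groups did not overlap. With its copies added, the difference of Rps23 was 0.51 (adjusted p = 0.00552). Rpl10a, which forms the L1 stalk, rose from 1342, 1775 and 1509.8 TPM to 2001, 2151 and 2165 TPM, a log2 difference of 0.46 (SE 0.11, adjusted p = 0.0142). Here WT c-kit+ replicate 2 was the nearest to the labelled knockout, again without overlap. Rps2, of the mRNA entry side of the small subunit, whose gene lies at chr17:24718116-24721929, rose by 0.43 (SE 0.092, adjusted p = 0.00899). After median-of-ratios scaling the 10 members still called were Rpl10a, Rpl29, Rpl41, Rpl5, Rpl8, Rps18, Rps19, Rps2, Rps23 and Rps7, of which those outside the naming rule in processing were listed after their values were seen.

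The 30 other members did not pass the test between these 2 groups. Among the smallest log2 differences were −0.049 (SE 0.12, adjusted p = 0.766) in Rps12, 0.022 (SE 0.09, adjusted p = 0.862) in Rplp2, 0.03 (SE 0.10, adjusted p = 0.829) in Rps27, 0.044 (SE 0.10, adjusted p = 0.736) in Rps20 and 0.054 (SE 0.08, adjusted p = 0.609) in Rpl10. Rps27, a zinc finger protein of the small subunit, was listed at 3602, 4148 and 3513 TPM in WT c-kit+, against 3659.9, 4135 and 3691 TPM in the labelled knockout, and the values overlapped. With its copies added, the log2 difference of Rps12 was 0.15 (adjusted p = 0.293) and that of Rps20 0.13 (adjusted p = 0.316). Rpl12 lay above WT c-kit+ in all 3 libraries of the labelled knockout, at 85.1, 95.8 and 82.2 against 62.3, 81.1 and 49.4 TPM, yet missed the threshold by name, at 0.47 (SE 0.17, adjusted p = 0.0597), and passed it with its copies added, at 0.39 (adjusted p = 0.0226). Among the members highest by mean TPM over the 9 libraries, Rps24 at 0.24 (SE 0.10, adjusted p = 0.0779) and Rpl23a at 0.22 (SE 0.10, adjusted p = 0.12) did not pass either, and Rpl13a did, at 0.34 (SE 0.11, adjusted p = 0.0364).

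**Figure D3:**
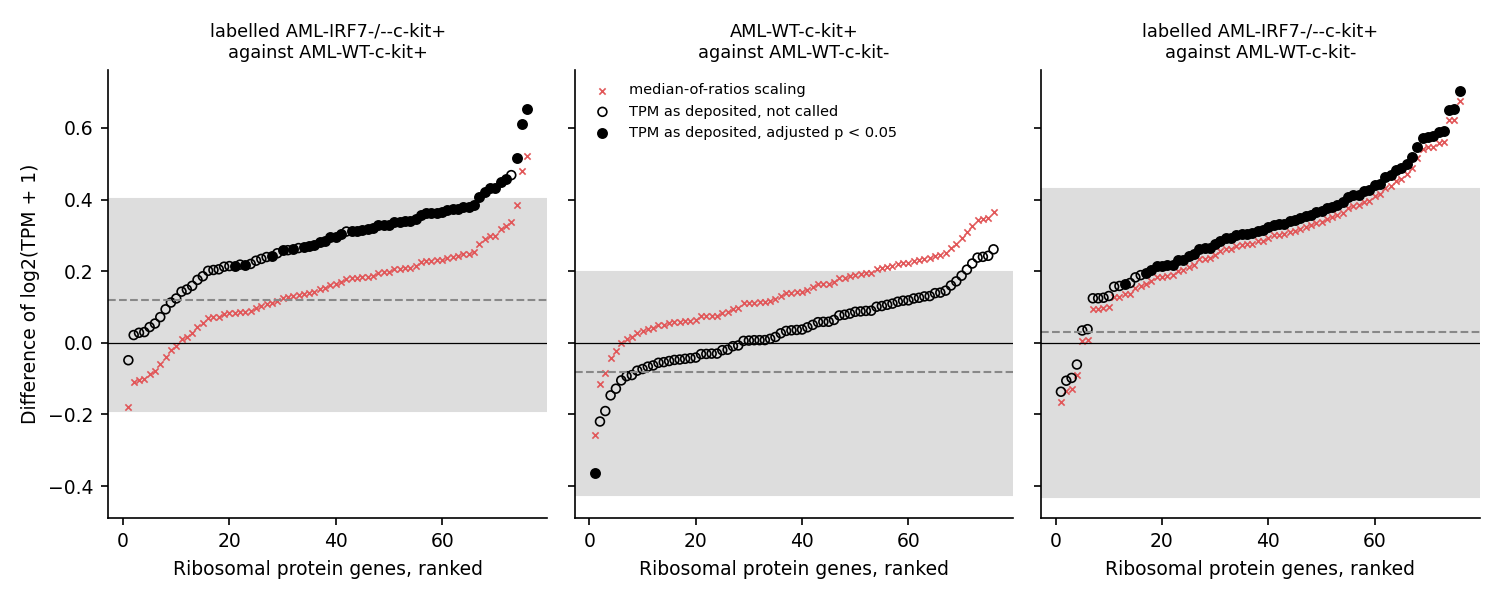
Differences of log2(TPM + 1) for the 76 ribosomal protein genes, ranked within each comparison, as deposited (circles, filled where limma's adjusted p was under 0.05) and after median-of-ratios scaling (crosses, in the same order of genes), with the median (dashed) and quartiles (grey) of all genes tested. The 46 filled circles of the left panel lie between 0.22 and 0.65, the middle panel holds 1 and the right panel 61. The crosses sit below the circles on the left and above them in the middle.

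WT c-kit+ against WT c-kit- compares the c-kit-sorted fractions of the control leukemia. By name and on the TPM as deposited, almost no ribosomal protein gene was called different. None of the 76 members was called higher by limma and 1 was called lower (2 and 1 at an unadjusted p under 0.05), while 14.0% of 13261 genes were called higher and 27.6% lower. The median log2 difference of the members was 0.035, with quartiles of −0.042 and 0.11, beside a median of −0.082 and quartiles of −0.42 and 0.20 for all genes. The 2150 genes tested at or above the lowest member mean had a median of −0.080 and quartiles of −0.39 and 0.13. Relative to all genes the members were 0.12 higher as deposited, 0.13 higher after median-of-ratios scaling and 0.13 higher with the mature myeloid list left out, but 0.042 lower after quantile normalization. Calls followed: 11 higher and 0 lower by median of ratios (19.4% and 22.4% of all genes), 17 and 1 without the mature myeloid list (20.1% and 21.1%), and 6 and 6 by quantiles (23.0% and 19.5%). Adding copies left 0 and 1 (14.1% and 27.8%). The sign of the median rested on single libraries: it was −0.040, with 27 of 76 members above 0, without WT c-kit+ replicate 2, 0.0026 without WT c-kit- replicate 3 and 0.088 without WT c-kit+ replicate 1, and the distance from all genes was 0.067 without WT c-kit+ replicate 2 and 0.17 without its replicate 1. Libraries of WT c-kit+ lay above all of WT c-kit- in 6 members, among them Rpl31, Rpl37a, Rpl9, Rps27a and Rps3, and below in 2, among them Rps9, against 19.7% and 34.7% of all genes. These names, Rps9 apart, fall outside the naming rule and were listed after their values were seen. The 1 call of a lower level was lost after median-of-ratios scaling and on leaving out WT c-kit- replicate 1 or 2, or WT c-kit+ replicate 1 or 3, and leaving out WT c-kit+ replicate 2 gave 2 such calls.

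Rps9, an rRNA-binding protein of the small subunit body, was listed at 3038, 3118 and 2888 TPM in WT c-kit-, 2418, 2836 and 2527 in WT c-kit+ and 2788, 3038 and 2848 in the labelled knockout. Its difference between the WT groups, −0.22 (SE 0.10, adjusted p = 0.121), missed the threshold although the groups did not overlap.

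Against WT c-kit-, the libraries labelled IRF7-/- c-kit+ showed the clearest difference, with higher levels in 61 of 76 members and lower levels in 0 (64 and 0 unadjusted), where 30.7% of 13510 genes were higher and 28.7% lower. These 2 groups differ in both c-kit sort and genotype label, which cannot be told apart here, and the same labelled libraries enter both comparisons in which the members are higher. The median log2 difference of the members was 0.31 (1.24-fold), with quartiles of 0.21 and 0.42, beside a median of 0.030 and quartiles of −0.43 and 0.43 for all genes. The 2228 genes tested at or above the lowest member mean had a median of 0.055 and quartiles of −0.38 and 0.36. No member passed a log2 difference of 1 in size, as 20.3% of all genes did. Libraries did not overlap in 67 members as higher and in 2, among them Rpl10, as lower, against 34.7% and 32.4% of all genes. The mature myeloid sums of these groups overlapped (25587 to 52220.2 and 23876 to 28620.2 TPM). Even so, 13 of the 19 markers were lower and 4 (Ctsg, Elane, Mpo and Prtn3) higher in the labelled knockout. Mean TPM of those 4, in the order named, went from 408, 881, 431 and 1458 (WT c-kit-) to 4017, 7820, 3724 and 5031. The sums therefore hide changes in opposite directions, and their overlap does not show that the groups were equally mature. Median-of-ratios scaling again called 61 members higher and 0 lower (29.4% and 30.1% of all genes). With that myeloid list left out 63 were called (30.1%), with copies added 64 (30.7%, and 28.9% lower), and leaving out 1 library at a time gave 52 to 63. Fewer were called without a filter on low values, 48 higher and 0 lower, and after quantile normalization, with 35 higher and 5 lower (34.8% and 25.8% of all genes) and a distance from the median of all genes of 0.059 in place of 0.28.

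Rps23, Rps2, Rpl36a and Rpl5 rose most against WT c-kit-. Rps23 was listed at 761, 797 and 725 TPM there, below all of the labelled knockout values given above, with a log2 difference of 0.70 (SE 0.059, adjusted p = 0.000106). Rps2 went from 1715, 1879 and 1637 TPM in WT c-kit- through 1863, 2287 and 1962 TPM in WT c-kit+ to 2699, 2738 and 2774 TPM in the labelled knockout, where it was 0.65 (SE 0.068, adjusted p = 0.000272) higher than in WT c-kit- on the log2 scale. The labelled knockout did not overlap with either other group, and the WT groups overlapped by 1 library each. Members at the other end were Rpl10 at −0.14 (SE 0.071, adjusted p = 0.142), Rps27 at −0.10 (SE 0.074, adjusted p = 0.29) and Rps9 at −0.061 (SE 0.065, adjusted p = 0.456), none of which passed the test. Over the 3 groups, 71 members had their highest mean in the labelled knockout, 4 in WT c-kit- and 1 in WT c-kit+, where 42.2%, 39.3% and 18.5% of the 13962 genes at 1 TPM or more in 3 libraries did.

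By subunit, 30 of 46 members of the 60S subunit and 16 of 30 of the 40S subunit were called higher in the labelled knockout against WT c-kit+, with median log2 differences of 0.31 and 0.25, where 31.9% of all genes were. Median-of-ratios scaling left 5 and 5, where 22.0% of all genes were called. Against WT c-kit- the counts were 40 of 46 and 21 of 30, with medians of 0.33 and 0.30, and the same numbers were called by median of ratios. There 30.7% of all genes were called higher, and 29.4% by median of ratios. Between the WT groups 0 and 0 were higher and 0 and 1 lower, with medians of 0.022 and 0.079. The 60S members held 55.97, 56.4 and 56.2% of the ribosomal protein TPM in WT c-kit-, 55.8, 56.7 and 56.5% in WT c-kit+ and 57.2, 57.1 and 56.8% in the labelled knockout. The last 3 were above the 6 others by a small margin. This ratio within a library does not depend on how libraries are scaled.

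The P stalk, which recruits elongation factors, split. Rplp0, the stalk base, was listed at 2522, 2608 and 2448 TPM in WT c-kit-, 2226, 2669 and 2438 in WT c-kit+ and 2893, 3068 and 2934 in the labelled knockout, and passed against both WT groups, with log2 differences of 0.28 (SE 0.088, adjusted p = 0.0366) and 0.23 (SE 0.059, adjusted p = 0.014). Rplp1, which pairs with Rplp2 on that base, was at 3271, 3597 and 3119.9 TPM in WT c-kit-, 3121, 4183 and 3389 in WT c-kit+ and 4433, 4923 and 4396 in the labelled knockout and passed likewise, at 0.37 (SE 0.13, adjusted p = 0.0483) and 0.46 (SE 0.084, adjusted p = 0.00314). Rplp2 was at 1220.3, 1308 and 1207 TPM in WT c-kit-, 1233, 1498 and 1292 in WT c-kit+ and 1410.1, 1376 and 1287 in the labelled knockout, the groups overlapped, and neither difference passed, at 0.022 (SE 0.09, adjusted p = 0.862) and 0.12 (SE 0.062, adjusted p = 0.125). After median-of-ratios scaling 0 of the 3 were called against WT c-kit+ and 2 against WT c-kit-, where 22.0% and 29.4% of all genes were called higher. Copies held under 1% of the sum for these genes.

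Rpl5 and Rpl11, which bind the 5S rRNA and, when free, the p53 inhibitor Mdm2, were both higher in the labelled knockout. Rpl5 by name was at 334, 384 and 298 TPM in WT c-kit-, 309, 376 and 314 in WT c-kit+ and 498, 525 and 498 in the labelled knockout, with log2 differences of 0.61 (SE 0.085, adjusted p = 0.00175) and 0.59 (SE 0.094, adjusted p = 0.00175). The labelled knockout did not overlap with the others. Most of its family is listed under Gm15500, a copy at 1494, 1733 and 1579.9 TPM in WT c-kit+, against 1892, 2014 and 2031 TPM in the labelled knockout, and the sum of both rows and the remaining copies rose by 0.36 (adjusted p = 0.0104). Rpl11, with 0.6 TPM in copies, was at 1379, 1520.4 and 1359 TPM in WT c-kit-, 1278, 1594 and 1312 in WT c-kit+ and 1739, 1809.7 and 1714 in the labelled knockout, with differences of 0.34 (SE 0.10, adjusted p = 0.0272) and 0.31 (SE 0.064, adjusted p = 0.00588). After median-of-ratios scaling its difference from WT c-kit+ was 0.21 (adjusted p = 0.108), and the call was lost.

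Of the 20 members known as Diamond-Blackfan anemia genes, 12 were called higher in the labelled knockout against WT c-kit+ and 15 against WT c-kit-, with medians of 0.32 in both, where 31.9% and 30.7% of all genes were. Between the WT groups limma called 0 of them (median 0.035, with 0 higher and 0 lower at an unadjusted p under 0.05). Median-of-ratios scaling left 3 and 15, where 22.0% and 29.4% of all genes were called, so the first count lies below that share. Rps19, the gene most often mutated in that disease, was among the 3 (chosen after its values were seen).

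Of the 4 members on the X chromosome, 3 were higher in the labelled knockout against both WT c-kit+ and WT c-kit-, where 31.9% and 30.7% of all genes were. Rps4x, of the small subunit, was at 2181, 2261 and 2029.8 TPM in WT c-kit-, 1957, 2281 and 1996 in WT c-kit+ and 2400.4, 2664 and 2446 in the labelled knockout, and rose by 0.27 (SE 0.089, adjusted p = 0.0424) against WT c-kit+. Rpl39, in the exit tunnel of the large subunit, was at 906, 1099 and 857 TPM in WT c-kit+ and 1268, 1342 and 1205 in the labelled knockout, a rise of 0.42 (SE 0.10, adjusted p = 0.0156). Rpl36a was at 1038, 1175 and 945 TPM in WT c-kit-, 1145, 1410.4 and 1182 in WT c-kit+ and 1539.8, 1797 and 1612 in the labelled knockout, and it rose by 0.41 (SE 0.10, adjusted p = 0.0174) and 0.65 (SE 0.10, adjusted p = 0.00142). For these 3 genes the labelled knockout libraries lay above all others. Rpl10, a late-joining protein at the catalytic center, differed in that its levels of 1250.1, 1295 and 1249.9 TPM in the labelled knockout overlapped with 1174, 1353 and 1138 in WT c-kit+ and lay below 1349.8, 1526 and 1305 in WT c-kit-. Its copy Rpl10-ps3 was at 2141, 2127 and 2021 TPM in WT c-kit-, 1659, 2109 and 1809 in WT c-kit+ and 2086, 2142 and 2259 in the labelled knockout, and with all copies added the difference from WT c-kit- was −0.025 (adjusted p = 0.756). After median-of-ratios scaling 0 of the 4 were called against WT c-kit+ and 3 against WT c-kit-, where 22.0% and 29.4% of all genes were called higher.

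Dividing each member by the summed ribosomal protein TPM of its library removes the shared rise and shows the place of each member within the set. On this scale, which needs no scaling between libraries, labelled knockout libraries lay above WT c-kit+ in 16 members and below in 19, with no overlap, and above WT c-kit- in 25 and below in 18. WT c-kit+ lay above WT c-kit- in 22 and below in 15. For all genes tested, taken as a ratio to the same sum, 18.9% were above and 34.8% below in the first comparison, 19.8% and 48.6% in the second, and 16.2% and 34.4% in the third. In the first comparison the members above were thus near the share of all genes, and those below were under it. The members named next were picked for the largest ratios of share between group means. Rps23 held 0.551, 0.547 and 0.543% of the set in WT c-kit-, 0.585, 0.634 and 0.621% in WT c-kit+ and 0.718, 0.698 and 0.758% in the labelled knockout, a rise in the group mean of 1.32-fold. All 3 groups were apart. The share of Rpl41 was 1.60, 1.71 and 1.69% in WT c-kit-, 1.53, 1.57 and 1.61% in WT c-kit+ and 2.11, 1.96 and 2.04% in the labelled knockout, whose libraries were the highest. Rps2 and Rpl36a had shares 1.28 and 1.28 times as high in the labelled knockout as in WT c-kit-.

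Rpl10, Rps27 and Rps9 were among the 4 members with the largest fall of share toward the labelled knockout. Rpl10 held 0.978, 1.05 and 0.978% in WT c-kit-, 0.898, 0.864 and 0.829% in WT c-kit+ and 0.746, 0.74 and 0.733% in the labelled knockout, with no overlap between any groups, and the mean of WT c-kit- was 1.35 times that of the labelled knockout. Rps27 held 2.96, 2.89 and 2.98% in WT c-kit-, 2.75, 2.65 and 2.56% in WT c-kit+ and 2.18, 2.36 and 2.16% in the labelled knockout, again apart (1.32-fold between the means). Rps9 held 2.20, 2.14 and 2.17% in WT c-kit-, 1.85, 1.81 and 1.84% in WT c-kit+ and 1.66, 1.74 and 1.67% in the labelled knockout. Copies held 2.72% of the family sum of Rps27 and 61.2% of that of Rpl10, while those of Rps9 held under 1%.

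**Figure D4:**
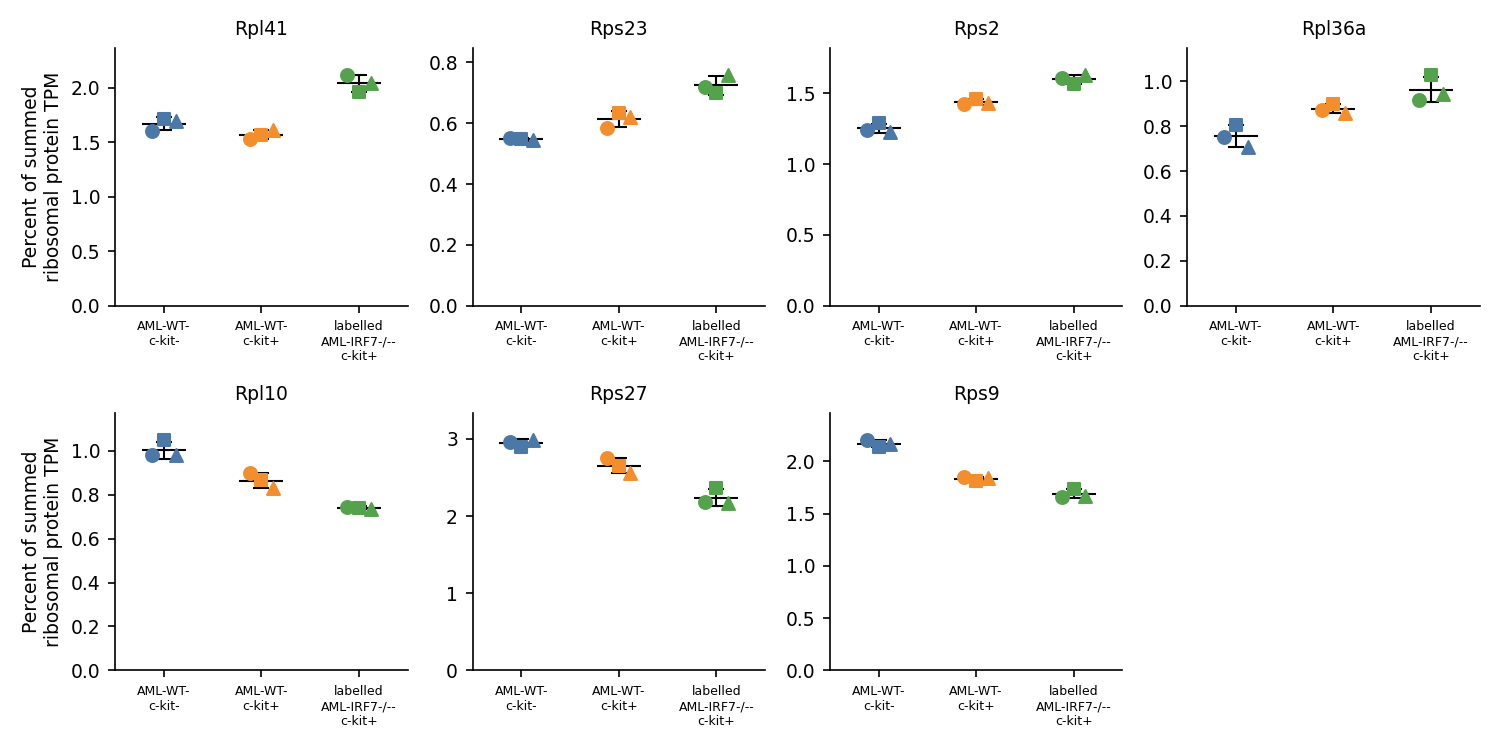
Share of the summed ribosomal protein TPM, in percent, held by the 4 members with the largest rise (top) and 3 of those with the largest fall (bottom: Rpl10, Rps27 and Rps9) of share in the libraries labelled IRF7-/- c-kit+, per library (replicates 1, 2 and 3 as circle, square and triangle) with the mean and SD in black. All axes start at 0. Rps23 rises and Rpl10 and Rps27 fall from WT c-kit- through WT c-kit+ to the labelled knockout with no overlap.

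Ribosomal protein genes that the naming leaves out were compared in the same way. Fau, which encodes Rps30 fused to a ubiquitin-like protein, was at 1836, 2051 and 1999 TPM in WT c-kit+ and 2187, 2287 and 2308 in the labelled knockout, and its difference did not pass, at 0.21 (SE 0.073, adjusted p = 0.0543). Rack1, a signalling scaffold on the small subunit, rose by 0.40 (SE 0.082, adjusted p = 0.00794) and Rps3a1, of the small subunit, by 0.28 (SE 0.087, adjusted p = 0.0358). After median-of-ratios scaling the difference of Rps3a1 was 0.15 (adjusted p = 0.175), where the call was lost.

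Among the 9 paralogs, 2 were at or near 0 TPM in the WT libraries and present in the labelled knockout. Rps4l, annotated as a transcribed processed pseudogene (chr6:148354656-148355598), was listed at 0, 0.08 and 0 TPM in WT c-kit-, 0.07, 0.08 and 0.1 in WT c-kit+ and 101, 76.97 and 95.6 in the labelled knockout, where Rps4x held the levels given above. On the log2(TPM + 1) scale it was 6.40 (SE 0.12, adjusted p = 1.18e-06) higher than in WT c-kit+. Its transcripts did not meet the measure for copies of Rps4x. Rpl39l, an Rpl39 relative best known from testis (chr16:10170226-10174911), was listed at 0 in all 3 libraries of WT c-kit-, at 0, 0.2 and 0 TPM in WT c-kit+ and at 3.89, 3.23 and 5.05 TPM in the labelled knockout, with a log2(TPM + 1) difference of 2.23 (SE 0.18, adjusted p = 0.000247) from WT c-kit+. These were the only 2 paralogs past a log2 difference of 1. Rpl36al, whose protein differs little from that of Rpl36a, rose from 716, 852 and 789.6 to 1127, 1052 and 1116 TPM, or by 0.48 (SE 0.079, adjusted p = 0.00304). Rps27l, a target of p53, rose by 0.55 (SE 0.12, adjusted p = 0.0104) and Rpl7l1 by 0.22 (SE 0.06, adjusted p = 0.0245). Rpl22l1 at 0.23 (SE 0.10, adjusted p = 0.0875) and Rps27rt at 0.31 (SE 0.21, adjusted p = 0.276) did not pass, Rpl10l was listed at 0 in all 9 libraries, and Rpl3l, at 0.25 to 1.46 TPM, was not tested. In all, 5 of the 7 tested were called higher against WT c-kit+ (4 by median of ratios), where 31.9% of all genes were (22.0% by median of ratios). Against WT c-kit- 6 of 7 were, beside 30.7% of all genes. Rps4l and Rpl39l are in these counts but passed the filter of 1 TPM in 3 libraries only through the labelled knockout, where they are high. Their calls and p-values follow in part from that filter and add no support. Neither was tested between the WT groups, where limma called 0 of 5 (0 higher and 0 lower at an unadjusted p under 0.05).

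**Figure D5:**
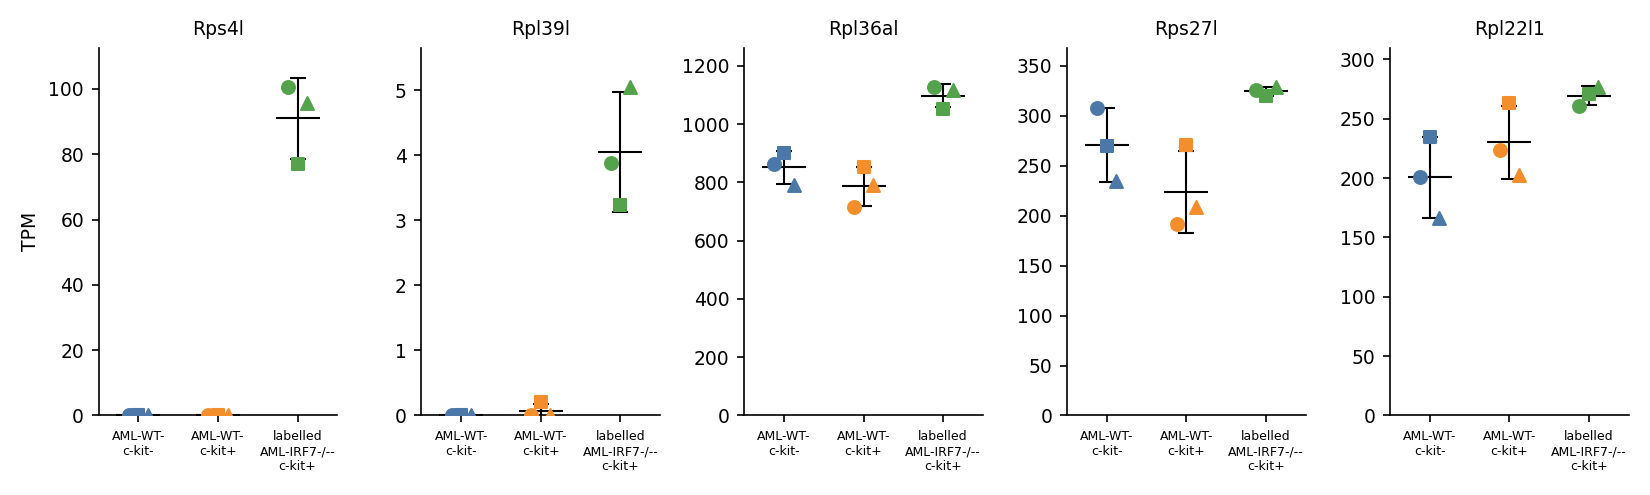
TPM of 5 ribosomal protein paralogs by library (replicates 1, 2 and 3 as circle, square and triangle) with the mean and SD in black, each panel on its own axis from 0. Rps4l and Rpl39l sit at or near 0 in the 6 WT libraries, and all 3 libraries labelled IRF7-/- c-kit+ are above them.

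Ribosome biogenesis factors, which build ribosomes, were mostly higher in the labelled knockout as well. Of 37 ribosome biogenesis factors, 31 were called higher by limma and 0 lower (at an unadjusted p under 0.05, 33 higher and 0 lower) in the labelled knockout against WT c-kit+ (24 and 0 by median of ratios), with a median log2 difference of 0.54. For all genes the shares were 31.9% and 16.1% there, or 22.0% and 22.1% by median of ratios. Against WT c-kit- 36 of the factors were higher (median 0.77), beside 30.7% of all genes. Between the WT groups 6 were higher and 2 lower (median 0.20), or 11 and 0 by median of ratios (median 0.30). Of all genes, 14.0% were higher and 27.6% lower between these groups, or 19.4% and 22.4% by median of ratios. The count of 6 is thus near the share of all genes. Wdr12, a 60S assembly factor, was at 15.2, 18.2 and 12.2 TPM in WT c-kit-, 21.4, 30.03 and 20.7 in WT c-kit+ and 47.1, 45.2 and 45.5 in the labelled knockout, the largest rise of the list against WT c-kit-, at 1.55 (SE 0.14, adjusted p = 0.000126). Rrp1b, of the nucleolus, rose by 0.98 (SE 0.19, adjusted p = 0.00664) and Rcl1, of 18S rRNA processing, by 0.94 (SE 0.13, adjusted p = 0.0018) against WT c-kit+. The ribosomal protein sum was 62.4 to 67.99 times that of the biogenesis factors in WT c-kit-, 56.1 to 60.9 times in WT c-kit+ and 49.4 to 53.5 times in the labelled knockout. The groups did not overlap in this ratio, which does not depend on scaling between libraries. Of 14 RNA polymerase I genes, which make rRNA, 7 were higher against WT c-kit+, among them Polr1a at 0.76 (SE 0.084, adjusted p = 0.00075), and 5 against WT c-kit-, with medians of 0.31 and 0.30. Of all genes, 31.9% and 30.7% were higher, and median-of-ratios scaling left 5 and 5, so the second count is near that of all genes.

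Mitochondrial ribosomal proteins, which serve the separate mitochondrial ribosome, gave 61 of 78 genes higher by limma and 0 lower against WT c-kit+ (67 higher and 0 lower unadjusted, median 0.37, and 34 by median of ratios), and 51 higher and 3 lower against WT c-kit- (median 0.36). For all genes the shares were 31.9% higher and 16.1% lower in the first comparison (22.0% higher by median of ratios). In the second they were 30.7% and 28.7%. Mrpl52 rose by 1.41 (SE 0.21, adjusted p = 0.00213) and Mrps5 by 0.78 (SE 0.069, adjusted p = 0.000309) against WT c-kit+. The cytosolic sum was 32.9 to 34.9 times the mitochondrial one in WT c-kit-, 36.1 to 40.3 times in WT c-kit+ and 33.8 to 35.6 times in the labelled knockout. In this ratio WT c-kit+ was the highest group without overlap, and the other two overlapped.

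Other mRNAs with a TOP motif, such as translation factors, were mixed. Of 20, 11 were higher and 1 lower against WT c-kit+ (median 0.27, and 5 and 1 by median of ratios), and 10 higher and 3 lower against WT c-kit- (median 0.14). For all genes the shares were 31.9% and 16.1% (22.0% and 22.1% by median of ratios), then 30.7% and 28.7%. Eef1g, an elongation factor subunit, rose by 0.61 (SE 0.079, adjusted p = 0.00128) and Npm1, a nucleolar chaperone, by 0.48 (SE 0.10, adjusted p = 0.00822) against WT c-kit+, while Eif4a2, an RNA helicase, fell by 0.44 on the log2 scale (adjusted p = 0.00703). Between the WT groups 2 fell, where 27.6% of all genes did, led by Vim, an intermediate filament gene, with a log2 difference of −2.04 (SE 0.063, adjusted p = 8.94e-06). Of 12 genes of mTORC1 and TOP control, 3 were higher and 2 lower against WT c-kit+ with a median of 0.089, near the 31.9% and 16.1% of all genes. Median-of-ratios scaling gave 1 and 3 with a median of −0.041, beside 22.0% and 22.1% of all genes. Rptor, which recruits mTORC1 substrates, rose by 0.62 (SE 0.093, adjusted p = 0.00226), and Mlst8, another subunit of the complex, fell by 0.86 on the log2 scale (adjusted p = 0.000498). RNA levels do not measure the activity of this pathway.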

How the data were processed

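Total RNA of sorted leukemia cells (TRIzol, Illumina TruSeq RNA kit v2) was sequenced in 9 libraries of 3 groups. The authors deposited 1 table with a value per gene and library. These are taken as TPM, since the deposited columns sum to between 987468 and 992231 and their source names no unit, and the aligner, annotation, counting and strand setting are not given in the sources used here. All 9 value columns were matched to samples by name, 1 of them with its replicate digit doubled, and 0 columns were left unmatched. Depth is unknown, so no counting interval is given.

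Tested genes had 1 TPM or more in 3 or more of the 6 libraries compared. They were tested with limma 3.58.1 in R 4.3.3 (lmFit, eBayes with trend) on log2(TPM + 1), each pair of groups on its own libraries. P-values were adjusted by Benjamini-Hochberg over all genes tested, and an adjusted p under 0.05 counts as a call. On this scale the differences of low genes come out smaller than their true ratio. All adjusted p-values in the text come from limma, from this fit unless another scaling or setting is named, where the same fit was run again on the changed values. Gene models are GENCODE M21 on GRCm38, and promoters are RefSeq on GRCm38.p6. A copy shares at least 50% of its 31-base words with a member. Tables and plots used Python 3.11.15, pandas 2.3.3, numpy 2.4.6 and matplotlib 3.10.9.

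Alternatives were no filter (rows at 0 throughout dropped), a minimum of 5 TPM, 0.1 as the pseudocount, median-of-ratios scaling, quantile normalization, 1 fit of all 9 libraries, a replicate block and leaving out each library. Leaving out the 19 mature myeloid genes and adding copies to their members were chosen after seeing the data. The members and the gene lists were chosen with earlier results of these data known. Members are named where they are among the 4 largest called changes without overlap in a comparison, the 4 highest or lowest levels, the P stalk, Rpl5 and Rpl11, chromosome X, or the 4 largest changes of share in a direction. Of other lists at most 2 called rises and 2 falls per comparison are named. Named besides are the paralogs, ribosomal protein genes of other names, some mature myeloid markers, Irf7 and Kit. Some genes that this rule picks are not reported here, and they stay in all sums and counts. Copies are named as examples.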

Additional observations from a re-analysis of the deposited data

How the results depend on the processing

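Against WT c-kit+, the number of members called higher in the labelled knockout, 46, became 14 without a filter, 23 after quantile normalization, 10 after median-of-ratios scaling, 17 without the mature myeloid list and 12 to 66 on leaving out 1 library. The median log2 difference became 0.15, 0.16 and 0.15 under quantiles, median of ratios and the left-out list, and its distance from all genes became 0.27 without a filter, where more low genes enter. Between the WT groups, 0 higher and 1 lower became 1 higher with a filter of 5 TPM, 6 higher and 6 lower by quantiles, 11 and 0 by median of ratios, 2 higher in 1 fit of all 9 libraries, 17 higher without the myeloid list, 0 lower without a filter and 0 to 2 lower on leaving out 1 library. The median became 0.14 by median of ratios and 0.16 without the myeloid list, and the distance from all genes −0.042 by quantiles. In the labelled knockout against WT c-kit-, quantile normalization gave 35 higher, 5 lower, a median of 0.16 and a distance of 0.059, and turned Rpl23a to −0.011. The cause was not tested. The mean summed TPM of WT c-kit-, WT c-kit+ and the labelled knockout became 174434, 195845 and 214950 without the 50 most abundant other rows, 156759, 160777 and 194842 with rows named as pseudogenes, and 171911, 175545 and 213848 with all near-identical copies. In the same order, the means of the members alone became 137102, 149689 and 165057 by median of ratios. With the genes of other names added to the members, they became 144919, 147267 and 177993. Of 27 called differences of named members, 27 held with a filter of 5 TPM, a pseudocount of 0.1, copies added and the replicate block, 26 in the fit of all libraries, 22 without the myeloid list, 20 by median of ratios, 18 by quantiles and 17 without a filter. Without 1 labelled knockout library at a time, 20 of the 27 held. Of the 12 that concern WT c-kit+ and the labelled knockout, 5 held without WT c-kit+ replicate 3, 6 without its replicate 1 and 12 without its replicate 2.

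Replicate numbers are shared by the groups. Deviations of same-numbered libraries correlated by −0.071 to 0.24, most of them above 0. Those of different-numbered libraries correlated by −0.18 to 0.14, most of them below 0. The numbers may thus carry some shared structure, and whether they pair samples is unknown. They were not taken to pair samples in the main fit. With the replicate block the members called were 48 against WT c-kit+, 1 higher and 1 lower between the WT groups, and 61 against WT c-kit-. With 3 libraries a group and TPM alone, differences under about the spread between libraries and the counting error could not be assessed.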
